A study of Mus musculus with 4 samples.

Results

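The interleukin-6 and gp130 cytokine axis is described here through 10 genes, the ligands *Il6*, *Il11*, *Lif* and *Osm*, the receptor chains *Il6ra*, *Osmr*, *Lifr* and *Il6st*, the transcription factor *Stat3* and the inhibitor *Socs3*. They were taken by symbol and all 10 were found among the 16015 genes listed, once each.

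Interleukin-6 and its relatives are cytokines that act on target cells through gp130, a receptor chain encoded by *Il6st* that they all use. Each ligand also needs a more specific chain, and the assembled receptor lets JAK kinases phosphorylate STAT3, a transcription factor that enters the nucleus and switches on genes of the acute phase, survival and wound repair. One of these genes is *Socs3*, whose protein binds gp130 and shuts the signal off again. In the colon the ligands come largely from leukocytes and stromal cells, and epithelial cells are among the cells that carry receptors.

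The libraries were made from colonic epithelial cells of 2 control mice, labelled WT and described in the methods as *Bmal1* fl/fl mice, and of 2 *Bmal1* cKO mice, which are *Bmal1* fl/fl mice that also carry Villin-CreERT2, a tamoxifen-activated Cre driven in intestinal epithelium. Other cell types of the colon are not targeted by this Cre. Mice of the study were on a C57BL/6 background and aged 2 to 4 months, and tamoxifen was given for 5 consecutive days. Both groups drank 3% dextran sodium sulfate (DSS), which injures the colonic epithelium, for 5 days and then water for 2 days, so each group was sampled in colitis, on day 7, and no library comes from an untreated mouse. The question behind the comparison was how *Bmal1*, a core clock gene, governs colitis.

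Values are normalized counts, the reads of a gene after division by a size factor for each library. Between 10312791 and 14156639 reads per library were recovered from them. The targeted gene, listed as *Arntl*, stood at 358 and 342 normalized counts in controls and at 341 and 289 in *Bmal1* cKO mice, with a log2 fold change (cKO minus control) of -0.16 (SE 0.14, limma adjusted p = 0.389). The label cKO is therefore not visible in the total count of this gene, which does not show from which exons reads came, and directions below are those of the libraries labelled *Bmal1* cKO. Epithelial genes were abundant in every library, with *Epcam* at 17500 and 21800 normalized counts in controls and at 18600 and 20300 in *Bmal1* cKO mice. Other epithelial markers were less even. Summed over 10 of them, the values were 201000 and 262000 in controls and lower, 151000 and 173000, in *Bmal1* cKO mice. Summed markers of leukocytes, neutrophils, fibroblasts, smooth muscle and endothelium were each lower in both *Bmal1* cKO libraries than in both control libraries. In bulk samples, fewer cells of a type and less RNA per cell cannot be told apart.

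Stretches upstream of RefSeq start sites were read for 9 of the 10 genes in the GRCm38.p6 table, and *Osm* was not in it. The 250 bases before each start were searched on both strands for the STAT site TTCNNNGAA, the AP-1 site TGANTCA and the E-box CACGTG, which the BMAL1 and CLOCK pair binds. The matches are shown because these factors act in inflammation or in the clock, with the matched letters in capitals and up to 10 bases on either side.
*Socs3*, STAT site, chr11:117969502-117969530, minus strand: gaaaccagccTTCTTAGAAgggagggggg
*Il6*, AP-1 site, chr5:30012864-30012881, plus strand: cTGAGTCActtttaaaga
*Lif*, AP-1 site, chr11:4257330-4257356, plus strand: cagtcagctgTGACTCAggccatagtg
*Il11*, AP-1 site before the downstream start, chr7:4778223-4778249, minus strand: ggagggagggTGAGTCAggatgtgtca
*Il6ra*, E-box, chr3:89913205-89913230, minus strand: tgctgtgtgtCACGTGcatgtgggaa

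Of the 32851 promoters in the table, 7.02% held a STAT site, 6.75% an AP-1 site and 6.02% an E-box in the same window. A match is a run of letters and shows no binding. *Socs3* was the only one of the 9 genes with a STAT site in this window, 154 bases before the start, and *Il6ra* the only one with an E-box, 24 bases before it. The start of *Socs3* in RefSeq lies inside the longer gene of the GENCODE annotation (117966079 to 117970047). By that annotation the STAT match is thus within the gene and not upstream of it. The bases just after this RefSeq start were found in no GENCODE transcript of *Socs3*. The AP-1 matches of *Lif*, *Il11* and *Il6* lay 228, 98 and 249 bases before the start.

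Of the 10 genes, *Socs3*, *Osm*, *Lif* and *Il6ra* were called lower in libraries labelled *Bmal1* cKO by limma, at an adjusted p under 0.05, and none was higher. In these 4 genes both *Bmal1* cKO libraries lay below both control libraries, and in the other 6 the groups overlapped. Over all 13983 genes tested, those whose mean reached 10 normalized counts, 27.7% were called lower and 29.0% higher. Both *Bmal1* cKO libraries lay below both control libraries in 41.7% of them, so separation of the groups in 4 of 10 genes was close to the share in the whole table. None of the 10 genes was higher at an unadjusted p under 0.05 either, and edgeR and DESeq2 also called 0 higher. The median log2 fold change was -1.68 over the 10 genes and -0.04 over all genes tested, and after the correction described below -1.48 and -0.01. The fit used log2(normalized count + 1), which understates changes of genes with few reads. With 2 mice per group an exact permutation test cannot give a p below 0.333, so only tests that share information across genes are given.

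**Figure D1:**
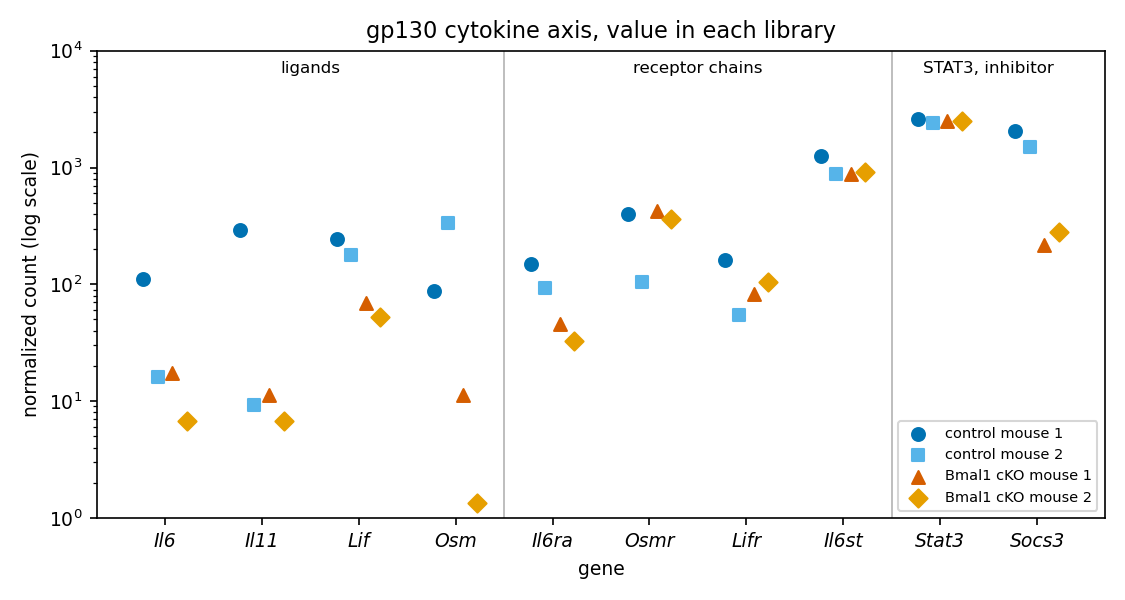
Normalized count of each of the 10 genes (log axis) in the 4 libraries, with 1 point per library. *Socs3*, *Lif*, *Osm* and *Il6ra* separate the groups, the 4 points of *Stat3* lie together near 2500, and control mouse 1 stands alone for *Il11* and *Il6*.

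Fold changes in this data set also followed base composition. Across the tested genes Spearman's rho between log2 fold change and GC content was -0.611, a description of these libraries since genes are not independent replicates. Correcting each library by loess for base composition and exon length brought it to -0.016. The correction removes this trend by construction, so the lower rho is no check of it. Whether the trend is technical or biological was not tested, and the correction may also remove or create differences. The corrected value is therefore given beside the uncorrected one for each of the 10 genes, and neither is taken as the truer. After it, 17.5% of the 13975 genes that could be corrected were lower and 18.2% higher, and among the 10 genes the same *Socs3*, *Osm*, *Lif* and *Il6ra* were lower and *Stat3* was higher. With the correction and *Bmal1* cKO mouse 1 left out limma called 0 genes of the whole table (2477 lower and 2407 higher at an unadjusted p under 0.05), and 0 also without *Bmal1* cKO mouse 2 (2508 and 2444), so every corrected call given here needs both of these mice.

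*Socs3* (chromosome 11, 117966079 to 117970047 on the minus strand, GRCm38), the feedback inhibitor, stood at 2040 and 1500 normalized counts in controls and at 219 and 283 in *Bmal1* cKO mice. Both control mice lay far above both *Bmal1* cKO mice, and the groups did not overlap. The group means were 1770 ± 381 and 251 ± 44.8 (SD, n = 2 each), 7.06-fold apart, and the log2 fold change was -2.81 (SE 0.20, limma adjusted p = 5.42e-04). With a GC content of 58.7% it is the most GC-rich of the 10 genes, and the correction moved its log2 fold change to -1.69 (limma adjusted p = 0.00657), which moves the fold by more than 1.5 times and leaves the call. Its call held in each fit without the correction that left out 1 mouse, with log2 fold changes between -3.03 and -2.59. With both the correction and a *Bmal1* cKO mouse left out it was not called (-1.45, adjusted p = 0.0584, without mouse 1 and -1.93, adjusted p = 0.0527, without mouse 2).

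*Stat3* (chromosome 11, 100885098 to 100939540, minus strand), whose protein carries the signal, stood at 2620 and 2390 normalized counts in controls and at 2500 and 2510 in *Bmal1* cKO mice. The *Bmal1* cKO values lay between the control values. Its log2 fold change was 0.00 (standard error 0.09, 95% interval -0.23 to 0.23, limma adjusted p = 0.986). After the correction it was 0.31 (limma adjusted p = 0.0497), a call lost whichever mouse was left out (0.25 to 0.37, adjusted p between 0.0555 and 0.194). Its sign also depended on scaling, with -0.22 under library totals and -0.14 under the upper quartile, neither past the threshold. These are levels of mRNA, and the activity of STAT3 rests on phosphorylation, which was not measured here. Exons of *Stat3* overlap those of *Stat5a* on the opposite strand by 72 bases, and whether the counting used strand is not given in the sources used here.

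Per kilobase of exon, *Socs3* stood at 257% and 207% of *Stat3* in controls and at 28.8% and 37.1% in the *Bmal1* cKO mice. By this measure *Socs3* was the higher of the 2 in controls and the lower in *Bmal1* cKO mice. Exon length joins the exons of all transcripts, 2891 bases for *Socs3* and 9527 for *Stat3*, and the order in controls depends on it. In normalized counts not divided by length, *Stat3* was the higher in every library. The ratio of *Socs3* to *Stat3* within a library does not depend on the size factor, but it was not corrected for base composition. The difference between the log2 fold changes of the 2 genes is smaller after the correction (-1.69 and 0.31) than before it (-2.81 and 0.00).

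Among the ligands, *Osm* (chromosome 11, 4236420 to 4241026, plus strand) had the lowest log2 fold change with all 4 mice, although *Il11* was lower still without control mouse 2 (-4.91 against -4.05). It encodes oncostatin M, a product of neutrophils, macrophages and T cells. It stood at 87.9 and 337 normalized counts in controls and at 11.3 and 1.35 in *Bmal1* cKO mice. These are 104, 398, 11 and 1 reads, so the groups did not overlap although each was widely spread. On the log2 scale the fold change was -5.01 (SE 1.01, limma adjusted p = 0.00967), and -4.46 after the correction (adjusted p = 0.0258). From pooled reads, 502 against 12, the ratio of control to *Bmal1* cKO was 30.3 with an exact 95% interval of 17.2 to 59.0 that covers counting error only. The call was lost without control mouse 2 (-4.05, adjusted p = 0.0742) and without *Bmal1* cKO mouse 2 (-3.82, adjusted p = 0.0617).

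*Lif* (chromosome 11, 4257557 to 4272514, plus strand), a ligand that pairs LIFR with gp130, lies near *Osm* on the same strand. It stood at 246 and 179 normalized counts in controls and at 68.9 and 52.7 in *Bmal1* cKO mice. Both control values were above both *Bmal1* cKO values, with little spread within a group. Its log2 fold change was -1.78 (SE 0.27, limma adjusted p = 0.00378) and -1.42 after the correction (adjusted p = 0.0150). *Lif* and *Socs3* were the 2 genes whose call held when any 1 mouse was left out of the uncorrected fit, with -2.01 to -1.55 for *Lif*. After the correction, that of *Lif* was lost without control mouse 1 (-1.19, adjusted p = 0.0529) and without *Bmal1* cKO mouse 1 (-1.58, adjusted p = 0.0738) or 2 (-1.25, adjusted p = 0.0930).

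*Il6* (chromosome 5, 30013114 to 30019981, plus strand), the founding cytokine of the family, stood at 112 and 16.1 normalized counts in controls and at 17.5 and 6.76 in *Bmal1* cKO mice. Control mouse 1 alone stood high, and control mouse 2 lay between the *Bmal1* cKO mice. The log2 fold change of -1.87 had a 95% interval of -4.42 to 0.67 (limma adjusted p = 0.164), and the corrected one was -2.90 (adjusted p = 0.0774). Without control mouse 1 it was -0.51 and without control mouse 2 it was -3.23 (adjusted p = 0.0424).

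*Il11* (chromosome 7, 4772373 to 4782859, minus strand), a cytokine of stromal cells in injured gut, had the same shape more sharply. It stood at 292 and 9.32 normalized counts in controls and at 11.3 and 6.76 in *Bmal1* cKO mice. Control mouse 1 stood alone, far above 3 libraries that lay close together. Only 0.2% of the genes tested differed as much between the control mice as *Il11* did. The log2 fold change of -2.49 did not pass the test (95% interval -6.38 to 1.39, limma adjusted p = 0.215), nor did the corrected value of -2.29 (adjusted p = 0.290). Uncorrected, it was -0.08 without control mouse 1 and -4.91 without control mouse 2 (adjusted p = 0.0140). DESeq2 on the recovered reads called it lower (log2 fold change -4.05, adjusted p = 0.00322).

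**Figure D2:**
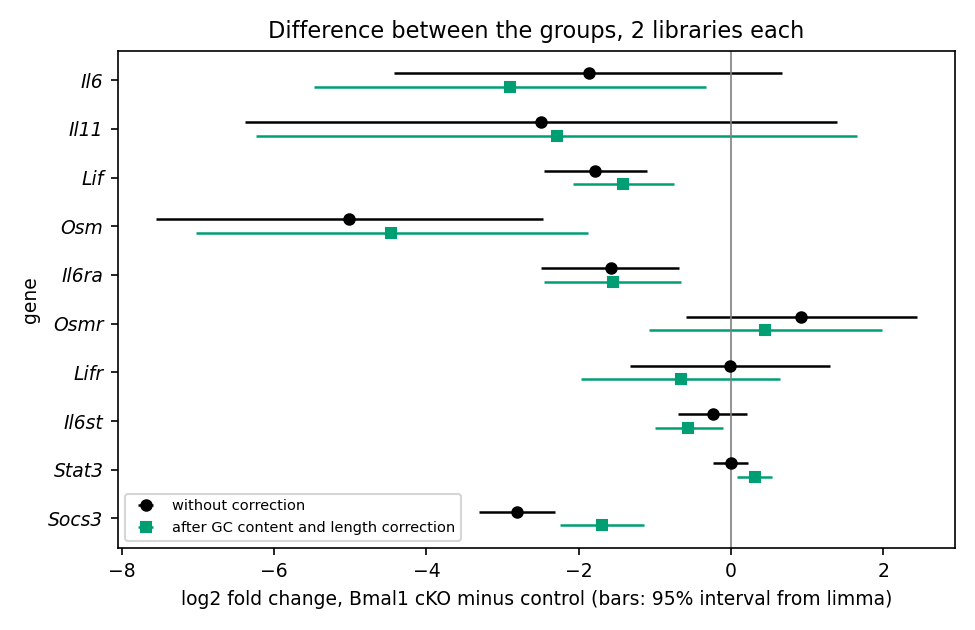
Log2 fold change of each gene, *Bmal1* cKO minus control, with 95% intervals from limma, without (circles) and after (squares) the correction for base composition and length. The intervals of *Lif*, *Osm*, *Il6ra* and *Socs3* stay below 0 in both fits, while those of *Il11*, *Osmr* and *Lifr* span 0 in both.

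Among the receptor chains, only *Il6ra* was called. It encodes the chain that binds interleukin-6 (chromosome 3, 89864059 to 89913196, minus strand). It stood at 148 and 92.3 normalized counts in controls and at 45.3 and 32.4 in *Bmal1* cKO mice. The lower control mouse was still well above the higher *Bmal1* cKO mouse. The log2 fold change was -1.58 (SE 0.36, limma adjusted p = 0.0147) and -1.55 after the correction (adjusted p = 0.0257). The call was lost without control mouse 1 (-1.25, adjusted p = 0.0957), without *Bmal1* cKO mouse 1 (-1.82, adjusted p = 0.0566) and without *Bmal1* cKO mouse 2 (-1.35, adjusted p = 0.0943). An antisense transcript overlaps its exons by 242 bases.

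The shared chain *Il6st* (chromosome 13, 112464070 to 112510086, plus strand) stood at 1260 and 883 normalized counts in controls and at 874 and 910 in *Bmal1* cKO mice. Control mouse 2 lay among the *Bmal1* cKO mice. The log2 fold change was -0.24 with a 95% interval of -0.70 to 0.21 (limma adjusted p = 0.291), and -0.56 after the correction (adjusted p = 0.0606). It was called lower without control mouse 2 (-0.50, adjusted p = 0.0367) and was 0.01 without control mouse 1.

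*Osmr* (chromosome 15, 6813577 to 6874969, minus strand), the oncostatin M chain, stood at 400 and 105 normalized counts in controls and at 422 and 361 in *Bmal1* cKO mice. Control mouse 2 alone stood low. Its log2 fold change was 0.92 with a 95% interval of -0.59 to 2.44 (limma adjusted p = 0.235), and 0.45 after the correction (adjusted p = 0.582). Without control mouse 1 it was 1.88 and called higher (adjusted p = 0.0157), and without control mouse 2 it was -0.04.

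*Lifr* (chromosome 15, 7090614 to 7197489, plus strand), the chain for leukemia inhibitory factor, stood at 160 and 55.1 normalized counts in controls and at 83.3 and 104 in *Bmal1* cKO mice. Control mouse 2 was again the lowest, and both *Bmal1* cKO values lay between the control values. Its log2 fold change was -0.01 (95% interval -1.32 to 1.30, limma adjusted p = 0.986), and -0.66 after the correction (adjusted p = 0.351). Uncorrected, it was 0.75 without control mouse 1 and -0.77 without control mouse 2, neither past the threshold. With the correction and without control mouse 2 it was -1.41 and called lower (adjusted p = 0.0240).

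The levels of the 10 genes were ordered per kilobase of exon, with the exons of all transcripts of a gene joined, so the order depends on that length. In the control mice the mean normalized count per kilobase was 612 for *Socs3*, 263 for *Stat3* and 96.6 for *Il6st*, and the libraries of these 3 genes did not overlap. The other 7 followed from *Osm* (93.5) through *Il11* (72.5), *Lif* (48.8), *Il6* (26.3), *Osmr* (20.9) and *Il6ra* (13.9) to *Lifr* (9.96), and from *Il6st* on each overlapped its neighbour in the order between libraries. In the *Bmal1* cKO mice *Stat3* (263) came first, *Socs3* (86.8) and *Il6st* (80.4) overlapped, and *Osmr* (32.3), *Lif* (14.0) and *Lifr* (8.70) followed without overlap. *Il6* (4.99), *Il6ra* (4.50), *Il11* (4.34) and *Osm* (2.79) came last and could not be ordered.

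The control mice differed from each other unequally over the axis. Of the 10 genes, 9 were higher in control mouse 1, and only *Osm* was higher in control mouse 2. Differences between these mice as large as that of *Stat3* were found in 63.2% of all genes tested, and as large as those of *Socs3*, *Lif*, *Il6st* and *Il6ra* in 26.0%, 25.2%, 22.5% and 17.3%. For *Lifr*, *Osmr*, *Osm* and *Il6* the shares were 6.61%, 4.64%, 4.61% and 2.01%. Markers of other cells were also unequal between the control mice. Over 9 fibroblast markers the summed normalized count was 16000 in control mouse 1 and 3620 in control mouse 2, against 540 and 604 in the *Bmal1* cKO mice. Over 7 endothelial markers it was 1670 and 401 against 65.8 and 94.6. Over 8 listed neutrophil markers of 10 it was the other way round, 8930 in control mouse 1 and 26100 in control mouse 2, against 3500 and 2830. *Ly6g* alone made up 5800 and 7470 of these sums in controls and 2920 and 2550 in the *Bmal1* cKO mice.

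Of 20 leukocyte markers 15 were lower (13 after the correction) and none higher, where 27.7% of all genes were lower and 29.0% higher (17.5% and 18.2% after it), with sums of 13600 and 11400 in controls against 2430 and 2660 in *Bmal1* cKO mice. Smooth muscle markers summed to 1740 and 1920 against 18.5 and 35.1, with 5 of 6 lower in both fits. Of the fibroblast markers 7 of 9 were lower in both fits, of the endothelial markers 6 of 7 (5 after the correction), and of the neutrophil markers all 7 tested (6 after the correction), where *Ngp* and *Camp* had 0 reads in both *Bmal1* cKO mice. At 0 in both was also the endothelial marker *Emcn*. Epithelial markers summed to 201000 and 262000 in controls and to 151000 and 173000 in *Bmal1* cKO mice, with 4 of 10 lower and 1 higher, but 0 lower and 3 higher after the correction, not far from the shares over all genes. The goblet cell mucin *Muc2* alone made up 62800 and 102000 of these sums in controls and 24100 and 37700 in *Bmal1* cKO mice. For the 2 listed enteric glia markers of 4 the sums were 42.2 and 57.6 against 16.5 and 16.2. The part of these cells in the values of the cytokine genes was not tested.

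**Figure D3:**
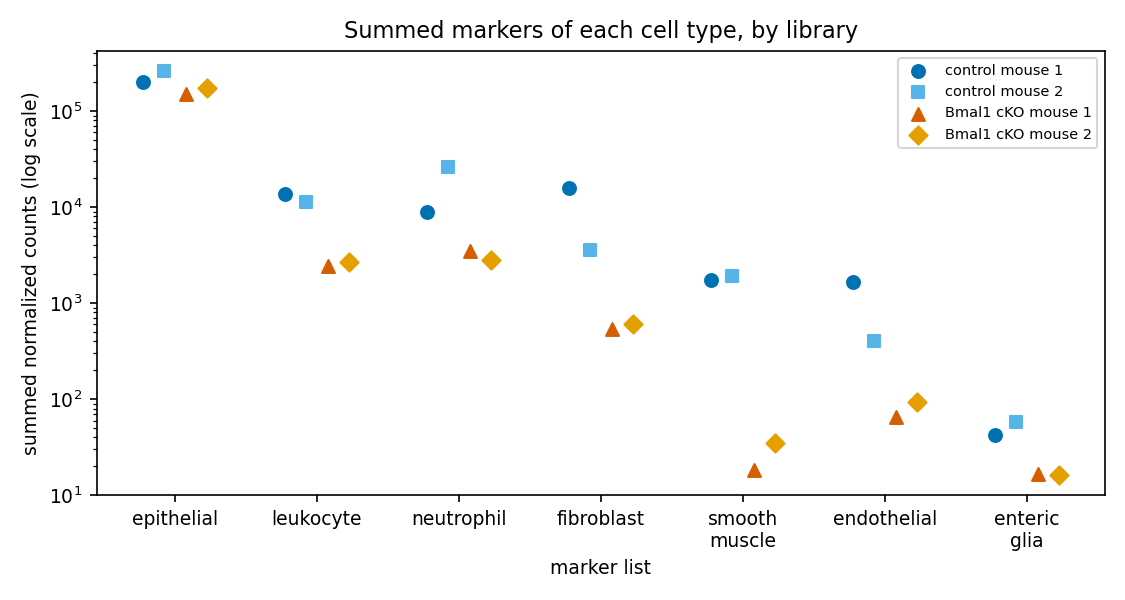
Summed normalized counts (log axis) of the marker genes of each cell type in the 4 libraries, with 1 point per library. Control mouse 1 is highest for fibroblasts (16000) and endothelium (1670), control mouse 2 for neutrophils (26100), and both *Bmal1* cKO mice are below both control mice in every list.

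Genes most like *Il6* across the 4 libraries, by the Euclidean distance of log2 values centred on their mean, were *Cxcr4* (distance 0.27), *Ifi206* (0.32) and *Svep1* (0.33). *Cxcr4*, a chemokine receptor, stood at 367 and 62.7 normalized counts in controls and at 52.5 and 23.0 in *Bmal1* cKO mice. Most like *Socs3*, where a mean of 100 or more was asked, were *Rin3* (0.13), *Ifnar2* (0.15) and *Ssbp4* (0.16). *Ifnar2*, a chain of the type I interferon receptor, had 270 and 176 against 28.8 and 35.1. These distances rest on 4 libraries and describe shape only.

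The rest of the gp130 family was sparse. Of 7 further ligand genes 5 were listed and 3 had enough reads to be tested. *Clcf1*, which encodes cardiotrophin-like cytokine, stood at 133 and 40.7 normalized counts in controls and at 0 and 8.11 in *Bmal1* cKO mice, and was called lower (log2 fold change -4.63, limma adjusted p = 0.0238) but not after the correction (-3.86, adjusted p = 0.0637). *Cntf* and *Ctf1* were not called. *Ebi3*, a subunit of interleukin-27, had 17 and 20 reads in controls and 0 in both others, at least 4.38-fold lower against a floor of 3 reads per library.

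Of 5 further receptor genes 2 were listed. *Il27ra* stood at 56.6 and 17.8 normalized counts in controls and at 5.14 and 4.06 in *Bmal1* cKO mice (log2 fold change -2.56, limma adjusted p = 0.0343), and was not called after the correction (-1.86, adjusted p = 0.109). *Il11ra1*, the chain for interleukin-11, had 214 and 127 against 96.7 and 100 (log2 fold change -0.74, adjusted p = 0.0819, and -0.17 after the correction). It has a near-identical copy in the mouse genome, so its reads are uncertain.

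Of 8 kinases and adaptors 2 were lower and 2 higher, and after the correction 1 and 1, near the shares over all genes (27.7% and 29.0%, then 17.5% and 18.2%). *Jak1*, the main kinase of gp130, stood at 2280 and 2180 normalized counts in controls and at 2360 and 2740 in *Bmal1* cKO mice (log2 fold change 0.19, limma adjusted p = 0.179, and -0.12 after the correction). *Jak2* was higher (0.69, adjusted p = 0.00648), but its corrected value was 0.06. *Sos1*, which links receptors to RAS, rose by 1.05 on the log2 scale and was 0.08 after the correction. *Grb2*, an adaptor of the same branch, was lower in both fits (-0.81 and -0.57, adjusted p = 0.00236 and 0.0140). *Shc1* was lower without the correction (-0.34) and 0.04 with it. *Tyk2* was -0.02 without it and higher with it (0.86, adjusted p = 0.00540).

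Of 12 other inhibitors 4 were lower and 3 higher, also near the shares of 27.7% and 29.0% over all genes. After the correction 4 were lower and 2 higher, beside 17.5% and 18.2% of all genes. *Ptpn6*, a phosphatase mainly of blood cells, stood at 531 and 378 normalized counts in controls and at 81.3 and 116 in *Bmal1* cKO mice (log2 fold change -2.19, limma adjusted p = 0.00175). *Ptpn1* (-1.25), *Socs2* (-1.15) and *Pias3* (-0.67) were the others that were lower, and all but *Pias3* were also lower after the correction. *Socs4* had 963 and 957 against 3050 and 3130 (1.69, adjusted p = 5.33e-04) and was higher in both fits, with 0.50 after the correction. *Socs6* (1.32) and *Pias1* (0.63) were higher only without it. After the correction *Ptpn2* was called lower (-0.92) and *Socs7* higher (0.55). *Socs1*, the close relative of *Socs3*, had 132 and 39.0 against 43.2 and 29.7 and was not called (-0.98, adjusted p = 0.225, and 0.15 after the correction).

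Both listed proteases that cut receptors off the cell surface were higher, where 29.0% of all genes were. After the correction 1 of them was, beside 18.2% of all genes. *Adam10* stood at 2340 and 2000 normalized counts in controls and at 6350 and 6110 in *Bmal1* cKO mice (log2 fold change 1.52, limma adjusted p = 5.46e-04), and was higher after the correction too (0.69, adjusted p = 0.00927). *Adam17* had 752 and 795 against 1470 and 1360 (0.87, adjusted p = 0.00142), and did not pass after it (0.29, adjusted p = 0.0655).

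Of 30 genes often described as targets of STAT3, 27 were listed and 26 tested, and 19 of these were lower and 2 higher, where 27.7% and 29.0% of all genes were. After the correction 16 were lower and 2 higher, beside 17.5% and 18.2% of all genes. The median log2 fold change of the list was -2.08 against -0.04 over all genes, and -1.14 against -0.01 after the correction. Many of the 30 answer to other factors as well, such as NF-κB and C/EBP, and this list was written with some of the results known.

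Genes of the list that encode secreted proteins did not all go one way. *Lcn2*, which starves bacteria of iron, stood at 1200 and 3490 normalized counts in controls and at 12.3 and 4.06 in *Bmal1* cKO mice (log2 fold change -7.96, limma adjusted p = 6.82e-04). *Saa3*, a serum amyloid A protein, had 5000 and 3220 against 62.7 and 46.0 (-6.20). *Hp* (haptoglobin) and *Timp1* (an inhibitor of matrix proteases) followed with -4.57 and -4.98, and all 4 were lower after the correction too. *Lrg1*, with a GC content of 63.0%, changed sign, from -0.75 (adjusted p = 0.0505) to 1.09 and called higher after it (adjusted p = 0.0227). Reads of *Saa1*, also lower, are uncertain because *Saa2* is nearly identical.

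Among transcription factors, *Junb* stood at 2700 in both controls and at 133 and 165 in *Bmal1* cKO mice (log2 fold change -4.18, limma adjusted p = 5.33e-04). *Cebpb* had 819 and 772 against 31.9 and 52.7 (-4.24) and *Cebpd* 1700 and 349 against 81.3 and 128 (-2.90). *Myc* was -2.08. All 4 were also lower after the correction, although *Junb* went to -2.47 and *Cebpb*, with a GC content of 67.2%, to -1.71. *Batf* had 0 reads in both *Bmal1* cKO mice and was at least 11.4-fold lower. *Bcl3*, a partner of NF-κB, was -2.10 without the correction and not called with it (-0.39, adjusted p = 0.182).

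Survival genes did not move together. *Bcl2l1*, which encodes BCL-XL, stood at 899 and 1010 normalized counts in controls and at 191 and 161 in *Bmal1* cKO mice (log2 fold change -2.44), whereas *Mcl1* had 4730 and 5710 against 8380 and 9390 (0.77, limma adjusted p = 0.00584). Both calls held after the correction. *Pim1*, a kinase gene, was lower in both fits (-2.64 and -1.88), and its relative *Pim3* only without the correction (-2.07, then -0.48). *Birc5*, a survivin gene tied to cell division, was not called (0.23, adjusted p = 0.101, and -0.06 after the correction).

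The antimicrobial lectins *Reg3b* and *Reg3g*, which interleukin-22 also induces through STAT3, had overlapping groups. *Reg3b* stood at 2570 and 426 normalized counts in controls and at 1930 and 5250 in *Bmal1* cKO mice (log2 fold change 1.60, 95% interval -0.67 to 3.88, limma adjusted p = 0.179, and 1.29 after the correction). *Reg3g* had 1210 and 202 against 599 and 1380 (0.88, adjusted p = 0.417, and 0.13 after the correction). In both, control mouse 2 alone stood low. *Fos* overlapped as well (-0.28, adjusted p = 0.348, and -0.04 after the correction), and *Hif1a* was higher without the correction (1.16) but not with it (0.23, adjusted p = 0.356).

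**Figure D4:**
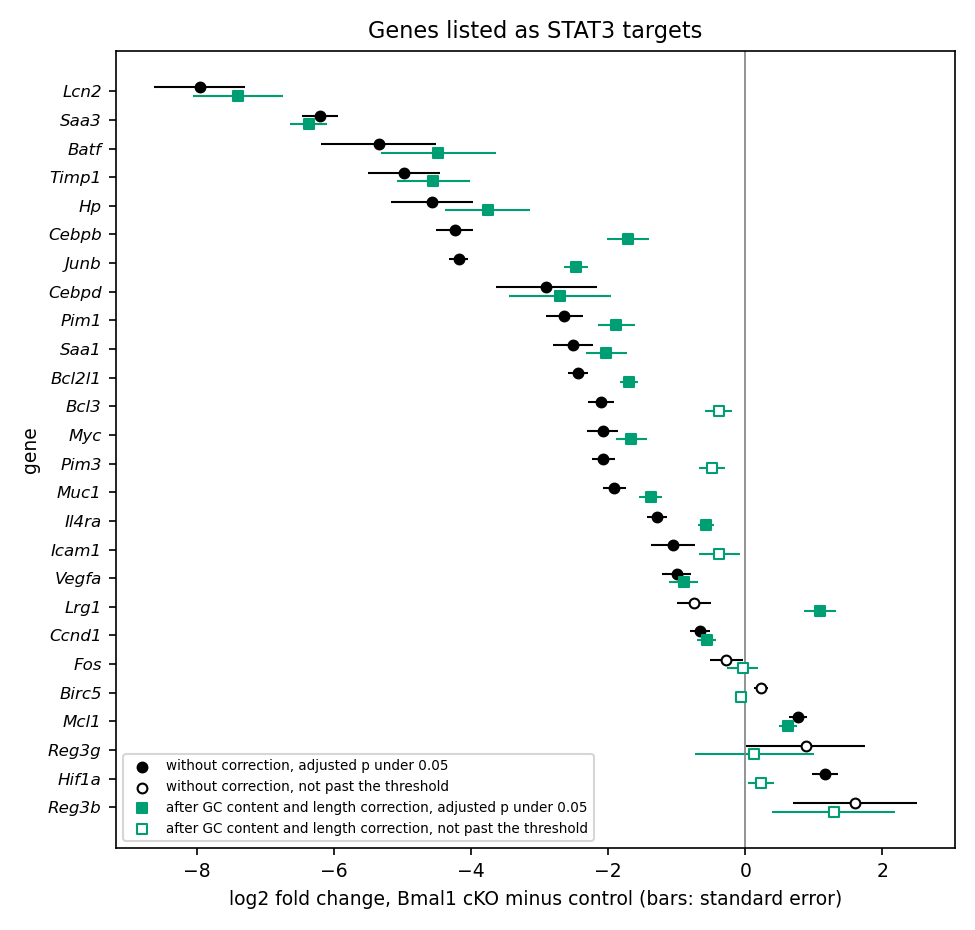
Log2 fold change, *Bmal1* cKO minus control, of the 26 tested genes of the STAT3 target list, with standard errors from limma, without (circles) and after (squares) the correction for GC content and length. Filled symbols have an adjusted p under 0.05 and open ones do not. The value of *Batf*, with 0 reads in both *Bmal1* cKO mice, depends on the pseudocount. *Lcn2* is farthest left in both fits, and *Lrg1* is the gene whose symbols lie farthest apart across 0.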

How the data were processed

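Bulk RNA sequencing libraries of colonic epithelial cells from 2 control and 2 *Bmal1* cKO mice were compared. The authors aligned reads to GRCm38 with STAR and ran DESeq2. The counter, its use of strand and the annotation are not given in the sources used here, and the labels and the methods name different library kits. The authors deposited a signal for each library and its mean, counts per gene after division by size factors. They also deposited log2 fold changes, their standard errors and a Wald statistic (a score) with each p-value and adjusted p-value, which were not used.

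Dividing each library by the worth of 1 read gave whole numbers for 100% of values (tolerance 0.01) and so the reads themselves. For the 13983 genes whose mean reached 10, log2(value + 1) was fitted with limma 3.58.1 (trend, two-sided), and p-values were adjusted by Benjamini-Hochberg (threshold 0.05). GC content (longest transcript) and exon length came from GENCODE M21 on GRCm38, with a loess span of 0.3. On the recovered reads edgeR 4.0.16 called 3812 genes lower and 3861 higher, and DESeq2 1.42.0 called 3757 and 3734. The steps were tested on simulated data. Labels give no separate cultures, and p-values measure the spread between these mice. Intervals from reads cover counting error only.

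The 10 genes and the lists were chosen with earlier results of these data known. Named were all 10 genes, genes of the pathway lists, defining markers, and the 3 genes nearest to *Il6* and to *Socs3*. *Camp*, *Emcn*, *Ly6g*, *Muc2* and *Ngp* were named after their values were seen. Promoter sequences are from RefSeq, GRCm38.p6. One gene of the other ligand list is not reported here.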

Additional observations from a re-analysis of the deposited data

How the results depend on the processing

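Other pseudocounts, filters, scalings, the correction for base composition and length, the replicate block, edgeR, DESeq2 and limma without a trend left *Socs3*, *Lif*, *Osm* and *Il6ra* lower, with log2 fold changes of -3.03 to -1.69, -2.0 to -1.42, -5.21 to -4.13 and -1.81 to -1.49 over 13 alternatives. *Stat3* changed sign under library totals (-0.22), the upper quartile (-0.14) and edgeR (-0.02). These scalings also moved the median of all genes, to -0.26 under library totals, where 4885 genes were lower and 3091 higher against 3871 and 4059, and to -0.18 under the upper quartile (4466 and 3438). The correction for base composition and length left 2439 genes lower and 2538 higher, and made 1 of the 10 genes of the axis higher. It left 0 other gp130 cytokines and 0 other receptors lower, 1 kinase or adaptor lower and 1 higher, and 1 sheddase higher. Without a trend in limma, 0 other cytokines, 1 kinase or adaptor and 2 inhibitors were lower. With a mean of at least 50, 0 other cytokines and 0 other receptors were lower, since fewer genes were tested, and with no filter 3 cytokines were. Library totals gave 2 other receptors lower. The cause of the other changes was not tested.

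The mouse numbers only name the mice, and deviations of equally numbered mice did not go together (correlation -0.0908). A replicate block gave 3789 genes lower and 3899 higher, with 4 and 0 of the 10 genes. The block together with the correction gave 2337 and 2343, with 5 and 0 of the 10 genes, 0 other cytokines and 0 other receptors lower, 1 kinase or adaptor lower and 1 higher, and 1 sheddase higher. *Il6* was then called lower (-2.90, adjusted p = 0.0251 from limma) and *Stat3* was not called (0.31, adjusted p = 0.0772).

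Each mouse was left out in turn with and without the correction, the latter planned and the former chosen after seeing the data, and the lone mouse of a group was assumed to vary like the other group. Genes lower ranged from 0 to 2852 and genes higher from 0 to 3154, where both zeros are corrected fits without a *Bmal1* cKO mouse. Without the correction they ranged from 2205 and 2654. Of the 10 genes, 0 to 7 were lower and 0 to 1 higher. Lower and higher were 0 to 1 and 0 to 2 kinases or adaptors, 0 to 4 and 0 to 3 inhibitors, and 0 to 19 and 0 to 3 STAT3 targets. From 0 to 1 other cytokines and 0 to 2 other receptors were lower, and 0 to 2 sheddases higher. Log2 fold changes spanned -4.91 to 0.12 for *Il11*, -0.50 to 1.88 for *Osmr*, -0.81 to 0.01 for *Il6st*, -1.41 to 0.75 for *Lifr* and -0.06 to 0.37 for *Stat3*. The sign of *Osmr* turned without control mouse 2 (-0.04, and -0.50 corrected), that of *Lifr* without control mouse 1 (0.75, and 0.09 corrected) and without *Bmal1* cKO mouse 1 (0.15).

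With 12, 22 and 16 reads in both *Bmal1* cKO mice together for *Osm*, *Il6* and *Il11*, the depth does not order these genes in *Bmal1* cKO mice. Genes of the other lists were recounted as lists only.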
